A study of Homo sapiens with 6 samples.

Results

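The genes that mark epithelial and mesenchymal cell states were examined after knockdown of BCAT1 in 67R cells. The set had 10 members, taken by gene name from a table of 60664 genes: the epithelial surface genes CDH1 and EPCAM, the mesenchymal genes CDH2, VIM and FN1, and the transcription factors SNAI1, SNAI2, ZEB1, ZEB2 and TWIST1. The rule takes members by name and uses no measured value, although the genes were proposed with earlier results of these data known. Among the 10 members, 8 passed the filter of a mean of at least 1 TPM that left 14286 genes for testing.

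67R cells are NCI-H1975 cells, a human lung adenocarcinoma line with mutant EGFR, in which resistance to ASK120067, an inhibitor of EGFR, was raised through stepwise dose escalation. Both groups were therefore resistant cells, and neither the parental line nor untransfected cells were analysed here. In the siNC group (genotype NC) the cells received a negative control siRNA, and in the siBCAT1 group (genotype BCAT1 knockdown) they received siRNA against BCAT1, with 3 libraries in each group. The methods give the name siBCAT1 to the second of their siRNAs, siBCAT1-2, and the libraries carry that name. The labels do not say whether the libraries came from separate cultures and they give no time after transfection, so p-values measure only the spread between these libraries. The study used single-cell clones of 67R for its proteomics, and whether the RNA-seq culture was such a clone is not given in the sources used here.

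Expression was measured in TPM, a unit that corrects for the length of a gene and the total of a library and so allows levels to be compared between genes. The values of a library summed to between 992512 and 995593, and between 23152 and 25043 genes per library were above 0. TPM holds no read counts, so the depth behind a single value is unknown. BCAT1 itself, which encodes the cytosolic branched-chain amino acid transaminase, gave 42.7, 42.2 and 29.8 TPM in siNC libraries 1, 2 and 3, against 8.78, 7.10 and 8.0 TPM in siBCAT1 libraries 1, 2 and 3. Its mean fell from 38.2 ± 7.33 to 7.96 ± 0.841 TPM (SD, 3 libraries per group). Its log2 fold change, on the scale of log2(TPM + 1), was -2.12 with a limma adjusted p of 0.000272.

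Epithelial cells are held together by adherens junctions, in which E-cadherin (CDH1) on neighbouring cells binds to itself and is anchored to actin through catenins. In the epithelial-mesenchymal transition (EMT), cells lower E-cadherin and gain N-cadherin (CDH2), the intermediate filament protein vimentin (VIM) and the matrix protein fibronectin (FN1). The zinc finger proteins of the SNAI and ZEB families and the basic helix-loop-helix protein TWIST1 drive this change in part by binding E-box sequences in the CDH1 promoter and repressing it. ZEB1 and ZEB2 are in turn restrained by the microRNAs of the miR-200 family, and in EGFR-mutant lung cancer a mesenchymal state has been described in cells that no longer respond to EGFR inhibitors.

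The sequences shown first are those through which ZEB1 and ZEB2 are known to be restrained, since these related genes gave values in opposite directions after knockdown. Only the change of ZEB2 passed the test. The mature sequences of the miR-200 family are from RefSeq (GRCh38.p14), with the seed, bases 2 to 8, in capitals. They form 2 groups by seed, miR-200b, miR-200c and miR-429 in the first and miR-141 and miR-200a in the second.
hsa-miR-200b-3p: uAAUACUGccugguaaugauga
hsa-miR-200c-3p: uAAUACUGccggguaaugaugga
hsa-miR-429: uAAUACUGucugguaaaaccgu
hsa-miR-141-3p: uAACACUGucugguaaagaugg
hsa-miR-200a-3p: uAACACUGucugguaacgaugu

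The words that pair with these seeds, CAGTATT and CAGTGTT, were counted on the sense strand of the 3′ UTR of 1 annotated transcript per gene (GENCODE 29, GRCh38). In the ZEB1 3′ UTR of 1938 bases CAGTATT occurred 5 times and CAGTGTT 3 times, and in the ZEB2 3′ UTR of 5370 bases they occurred 5 and 4 times. FN1 held CAGTATT 2 times and SNAI2 held it 1 time. Neither word was found in the 3′ UTRs of CDH1, CDH2, EPCAM, VIM, SNAI1 and TWIST1. Among 11641 tested genes with an annotated 3′ UTR, 17.3% held CAGTATT and 19.1% held CAGTGTT. The first such sites from the stop codon are shown with 10 bases on each side and the word in capitals.
ZEB1, 3′ UTR base 369: tttatcttatCAGTATTatcactctta
ZEB2, 3′ UTR base 392: taccatacatCAGTATTtttattatta
ZEB1, 3′ UTR base 782: tcatcagaatCAGTGTTtgtgattgtg
ZEB2, 3′ UTR base 208: aaattttgtaCAGTGTTaaggcctaaa

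The microRNAs themselves were not measured. MIR200CHG, a long RNA from the locus of miR-200c and miR-141, was listed at 0 TPM in all 6 libraries.

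Promoters, from 250 bases before to 50 bases after the start, were matched for 5 of the 10 members in the table of RefSeq promoters used here (GRCh38.p14), and those of CDH1, EPCAM, SNAI1, SNAI2 and TWIST1 were not analysed here. Those of ZEB1, ZEB2 and FN1 are shown at the RefSeq gene start because the values of ZEB1 and ZEB2 differed in direction and FN1 rose. Of the ZEB genes, ZEB2 passed the threshold and ZEB1 did not (limma adjusted p = 0.00379 and 0.0894). The E-box CACCTG, searched on both strands (CACCTG or CAGGTG), is the element bound by SNAI and ZEB proteins and lay in 20.6% of 35116 promoters of this length. The cAMP response element TGACGTCA was found in 1.85% of them, and the CCAAT box, also searched on both strands as CCAAT or ATTGG, in 34.6%. Capitals mark these 3 motifs, which do not overlap here. At this start ZEB1 held 1 E-box, ZEB2 held none of the 3 motifs, and FN1 held 1 cAMP response element and 1 CCAAT box. The table holds 7 starts for ZEB1, of which the most upstream is shown. The promoter of a further ZEB1 start (chr10:31318966-31319265) held 3 E-boxes, and those of the other 5 starts held none of the motifs.
ZEB1, chr10:31318167-31318466, plus strand: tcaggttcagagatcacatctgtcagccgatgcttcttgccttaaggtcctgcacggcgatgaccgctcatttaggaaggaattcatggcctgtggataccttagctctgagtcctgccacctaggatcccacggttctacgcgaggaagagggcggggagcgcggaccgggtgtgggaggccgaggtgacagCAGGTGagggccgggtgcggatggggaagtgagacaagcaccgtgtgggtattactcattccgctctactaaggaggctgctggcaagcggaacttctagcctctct
ZEB2, chr2:144520070-144520369, minus strand: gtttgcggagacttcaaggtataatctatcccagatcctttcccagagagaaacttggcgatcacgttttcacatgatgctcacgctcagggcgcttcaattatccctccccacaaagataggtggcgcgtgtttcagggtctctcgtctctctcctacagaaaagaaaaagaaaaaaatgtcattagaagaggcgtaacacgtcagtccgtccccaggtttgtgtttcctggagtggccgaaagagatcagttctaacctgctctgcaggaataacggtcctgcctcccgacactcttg
FN1, chr2:215436019-215436318, minus strand: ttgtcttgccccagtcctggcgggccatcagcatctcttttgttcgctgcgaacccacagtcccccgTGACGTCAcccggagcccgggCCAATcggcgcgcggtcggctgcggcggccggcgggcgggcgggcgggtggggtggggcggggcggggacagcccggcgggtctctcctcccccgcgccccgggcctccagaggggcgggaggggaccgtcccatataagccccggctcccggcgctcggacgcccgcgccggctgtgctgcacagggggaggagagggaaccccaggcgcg

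In control cells the members spanned a wide range of levels. VIM was highest at 2996 ± 89.1 TPM (SD, n = 3), followed by FN1 at 176 ± 7.05 TPM and SNAI1 at 52.3 ± 8.29 TPM. CDH1 (19.7 ± 8.34 TPM), ZEB1 (13.5 ± 0.709 TPM) and ZEB2 (12.2 ± 2.08 TPM) came next, and CDH1 overlapped with ZEB1, and ZEB1 with ZEB2, between their libraries. SNAI2 stood at 6.91 ± 1.25 TPM and EPCAM at 1.27 ± 0.327 TPM, while CDH2 was at 0.113 ± 0.0306 TPM and TWIST1 was listed at 0 in every library. These cells thus held abundant vimentin mRNA together with E-cadherin mRNA and almost no N-cadherin mRNA without BCAT1 knockdown.

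After knockdown the order changed. SNAI1 (24.5 ± 1.148 TPM), ZEB1 (16.3 ± 1.42 TPM) and ZEB2 (5.96 ± 0.516 TPM) now all stood above CDH1 (3.10 ± 1.95 TPM), whose libraries overlapped with those of SNAI2 (2.97 ± 0.580 TPM). SNAI2 in turn overlapped with EPCAM (2.33 ± 0.334 TPM).

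**Figure D1:**
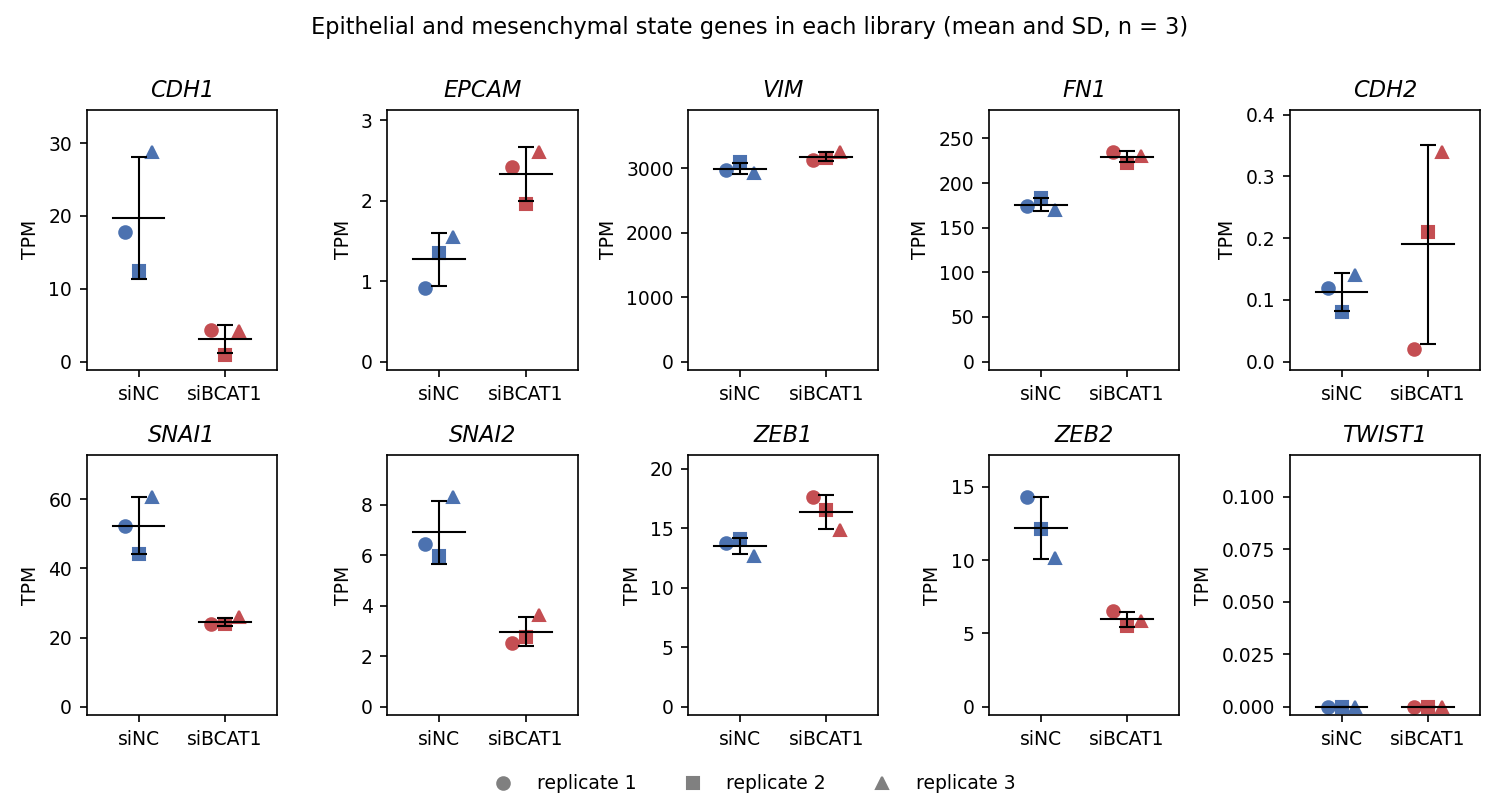
TPM (vertical axes, linear, with 0 shown) of the 10 members in the 3 siNC and 3 siBCAT1 libraries, where symbols mark the replicate, lines the mean and bars the SD. CDH1, SNAI1, SNAI2 and ZEB2 lie lower in every siBCAT1 library, FN1, EPCAM, ZEB1 and VIM lie higher, and CDH2 and TWIST1 are near or at 0.

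Of the 8 tested members, 4 were lower in siBCAT1 cells with an adjusted p under 0.05 (limma, Benjamini-Hochberg over all tested genes) and 1 was higher. Over all 14286 tested genes 10.4% were called lower and 16.7% higher, 27.1% in either direction. The median log2 fold change was -0.41 over the 8 tested members and 0.04 over all tested genes. The siNC and siBCAT1 libraries did not overlap for any of the 8 tested members, which was also the case for 44.1% of all tested genes. The fold changes are on the scale of log2(TPM + 1), which understates the change of weakly expressed genes.

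CDH1 (ENSG00000039068, chromosome 16, 68737225 to 68835548, plus strand), which encodes E-cadherin, fell furthest. Libraries 1, 2 and 3 of the siNC group gave 17.8, 12.5 and 28.8 TPM, and those of the siBCAT1 group gave 4.30, 0.850 and 4.16 TPM. Every siBCAT1 library was below every siNC library, and the lowest siNC value was 2.90 times the highest siBCAT1 value. The mean was 6.35 times lower after knockdown, and the log2 fold change was -2.41 (SE 0.45, 95% interval -3.48 to -1.34, limma adjusted p = 0.00881). Only 29 of the 14286 tested genes had a lower log2 fold change. The libraries of both groups were spread, with siNC replicate 3 the highest and siBCAT1 replicate 2 the lowest of all. In bulk RNA, fewer cells that express a gene and less RNA in each cell cannot be told apart.

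EPCAM (ENSG00000119888, chromosome 2, 47345158 to 47387601, plus strand), an adhesion molecule of epithelial cells, gave values in the other direction than CDH1. Libraries 1, 2 and 3 of the siNC group gave 0.910, 1.35 and 1.55 TPM, and those of the siBCAT1 group gave 2.42, 1.96 and 2.61 TPM, so every siBCAT1 library was above every siNC library at a low level. The log2 fold change was 0.56 (SE 0.19, 95% interval 0.10 to 1.02), with an adjusted p of 0.0732 from limma, which did not pass the threshold.

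VIM (ENSG00000026025, chromosome 10, 17228259 to 17237593, plus strand) gave 2972, 3095 and 2922 TPM in siNC libraries 1, 2 and 3, against 3133, 3162 and 3260.0 TPM in siBCAT1 libraries 1, 2 and 3. The siBCAT1 libraries all lay above the siNC libraries, by little, and the log2 fold change of 0.09 (SE 0.04, 95% interval 0.0036 to 0.17) had an adjusted p of 0.113 from limma. Under quantile normalization it was 0.20 and passed the threshold (adjusted p = 0.00951 from limma), and under median-ratio scaling it was 0.04 with an adjusted p of 0.662, so its call depended on the scaling.

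FN1 (ENSG00000115414, chromosome 2, 215360440 to 215436172, minus strand), the gene of the matrix glycoprotein fibronectin, was the member that rose past the threshold. Libraries 1, 2 and 3 of the siNC group gave 174, 184 and 170.2 TPM, and those of the siBCAT1 group gave 235, 223 and 231 TPM. The replicates were close within each group, and the groups were apart. The mean rose from 176 ± 7.05 to 229 ± 6.32 TPM (SD, 3 libraries per group), which is 0.38 on the log2 scale (SE 0.05, 95% interval 0.26 to 0.51, limma adjusted p = 0.00267).

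CDH2 (ENSG00000170558, chromosome 18, 27950966 to 28177446, minus strand), the gene of N-cadherin, gave 0.120, 0.080 and 0.140 TPM in siNC libraries 1, 2 and 3, against 0.020, 0.210 and 0.340 TPM in siBCAT1 libraries 1, 2 and 3. The groups overlapped, and all values were under the filter. When no filter on low values was applied, its log2 fold change was 0.09 (SE 0.10, limma adjusted p = 0.667), so no rise of CDH2 was detectable at this level beside the fall of CDH1.

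Among the transcription factors, SNAI1 (ENSG00000124216, chromosome 20, 49982999 to 49988886, plus strand), which encodes the repressor Snail, was the most abundant. Libraries 1, 2 and 3 of the siNC group gave 52.2, 44.1 and 60.6 TPM, and those of the siBCAT1 group gave 23.9, 23.8 and 25.9 TPM. All siBCAT1 libraries were lower and close to each other. The log2 fold change was -1.05 (SE 0.12, 95% interval -1.33 to -0.77, limma adjusted p = 0.00122).

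SNAI2 (ENSG00000019549, chromosome 8, 48917604 to 48921740, minus strand) encodes the related repressor Slug. Libraries 1, 2 and 3 of the siNC group gave 6.45, 5.96 and 8.32 TPM, and those of the siBCAT1 group gave 2.53, 2.76 and 3.63 TPM. Its libraries did not overlap between groups, and the log2 fold change was -0.99 (SE 0.17, 95% interval -1.39 to -0.60, limma adjusted p = 0.00595).

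ZEB2 (ENSG00000169554, chromosome 2, 144364364 to 144524583, minus strand), which encodes a repressor with zinc fingers at both ends of the protein, gave 14.3, 12.1 and 10.2 TPM in siNC libraries 1, 2 and 3, against 6.53, 5.52 and 5.84 TPM in siBCAT1 libraries 1, 2 and 3. Each siBCAT1 library was below each siNC library. The log2 fold change was -0.91 (SE 0.14, 95% interval -1.24 to -0.59, limma adjusted p = 0.00379).

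ZEB1 (ENSG00000148516, chromosome 10, 31318495 to 31529814, plus strand), the paralog of ZEB2, gave values in the other direction. Libraries 1, 2 and 3 of the siNC group gave 13.7, 14.1 and 12.7 TPM, and those of the siBCAT1 group gave 17.6, 16.6 and 14.8 TPM. The groups did not overlap, but siBCAT1 replicate 3 stood near the siNC libraries. Its log2 fold change was 0.26 (SE 0.10, 95% interval 0.03 to 0.48), with an adjusted p of 0.0894 from limma, which did not pass the threshold.

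TWIST1 (ENSG00000122691, chromosome 7, 19020991 to 19117672, minus strand) was listed at 0 TPM in all 6 libraries, and so was its relative TWIST2. Of the 5 transcription factors examined, 3 that repress CDH1 were therefore lower in the cells in which CDH1 was lower, 1 had higher values without passing the test, and 1 was not detected.

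**Figure D2:**
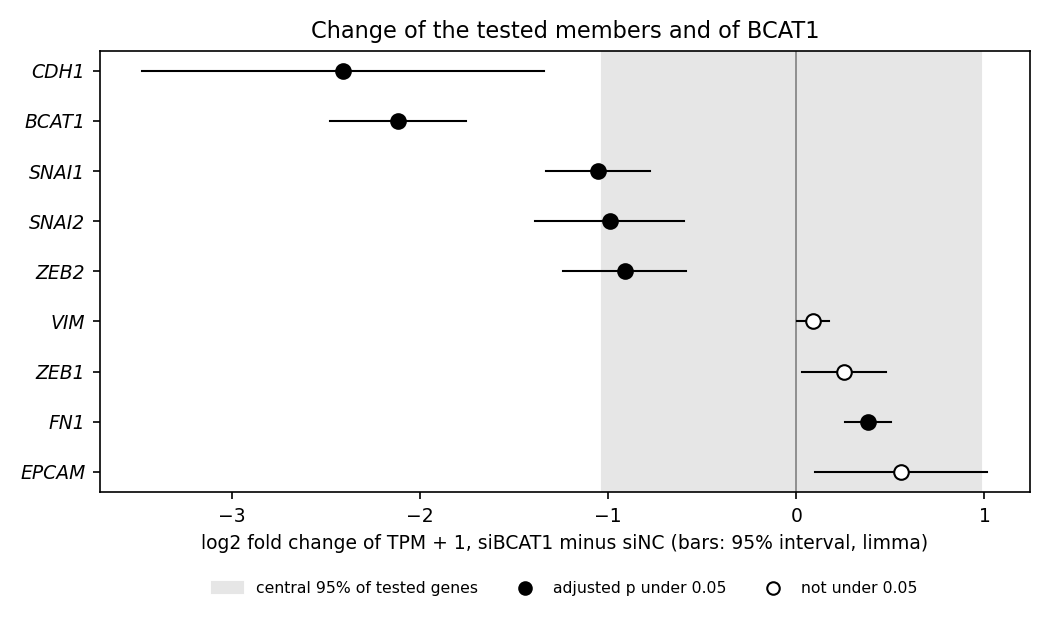
Log2 fold change of TPM + 1 (horizontal axis, siBCAT1 minus siNC) of the 8 tested members and BCAT1 with 95% intervals from limma, where filled points have an adjusted p under 0.05 and grey marks the central 95% of the 14286 tested genes (-1.03 to 0.98). CDH1 at -2.41 and BCAT1 at -2.12 lie well below the grey band, and FN1 at 0.38 lies within it.

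Ratios of members within a library do not depend on how libraries were scaled, and they are given without a test. VIM to CDH1 was 167, 248 and 101 in siNC and 729, 3720.0 and 784 in siBCAT1 replicates 1, 2 and 3. The groups were apart, and the geometric mean was 7.97 times higher after knockdown, or 4.69 times without siBCAT1 replicate 2. CDH1 to EPCAM was 19.6, 9.23 and 18.6 in siNC and 1.78, 0.434 and 1.59 in siBCAT1 replicates 1, 2 and 3, which separated the epithelial genes from each other by a factor of 13.99, or 8.91 without siBCAT1 replicate 2.

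ZEB1 to ZEB2 was 0.960, 1.16 and 1.25 in siNC and 2.70, 2.998 and 2.54 in siBCAT1 replicates 1, 2 and 3. ZEB1 and ZEB2 mRNA were thus at about equal levels in control cells, and ZEB1 was 2.74 times as abundant as ZEB2 after knockdown. SNAI1 to SNAI2 was 8.10, 7.40 and 7.29 in siNC and 9.47, 8.63 and 7.13 in siBCAT1 replicates 1, 2 and 3. These groups overlapped, and both genes fell by a similar factor. CDH1 to SNAI1 was 0.341, 0.283 and 0.475 in siNC and 0.180, 0.0357 and 0.161 in siBCAT1 replicates 1, 2 and 3, so CDH1 was lower also relative to its repressor, 3.55 times, or 2.11 times without siBCAT1 replicate 2. CDH2 to CDH1 overlapped between the groups.

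**Figure D3:**
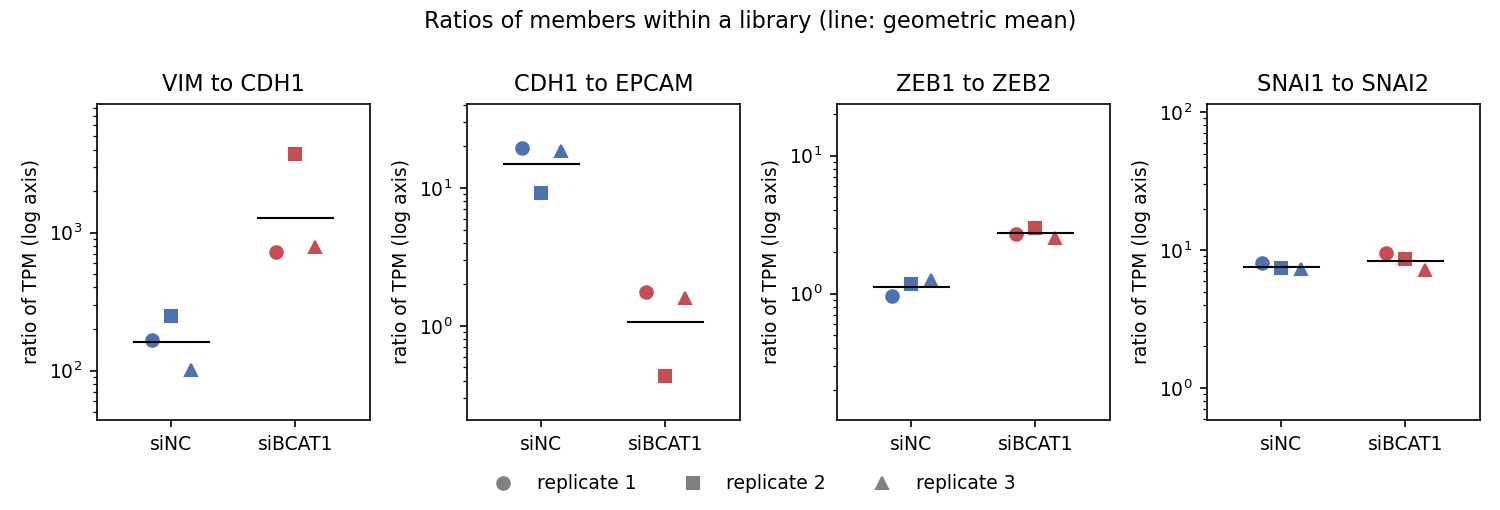
Ratio of TPM of 2 members within each library (vertical axes, log scale with the same span in each panel) in siNC and siBCAT1 cells, where symbols mark the replicate and lines the geometric mean. VIM to CDH1 and ZEB1 to ZEB2 are higher and CDH1 to EPCAM is lower in all 3 siBCAT1 libraries, while SNAI1 to SNAI2 overlaps.

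Words that pair with the seeds of the siRNAs were also counted in the 3′ UTRs. The study's methods name 2 target sequences in BCAT1, siBCAT1-1 and siBCAT1-2, of which the second is also called siBCAT1, as these libraries are. The sites for bases 2 to 8 of the strands that pair with these targets are AGACAAT (siBCAT1-1) and TTGAGCA (siBCAT1-2). Of the 10 members, ZEB2 held 1 site of each, and CDH1, SNAI1, SNAI2 and the other 6 members held neither. Among the 11641 tested genes 8.99% held AGACAAT and 11.5% held TTGAGCA. The ZEB2 sites are shown with 10 bases on each side and the site in capitals, since ZEB2 was among the genes that fell, and their part in its fall was not tested.
ZEB2, 3′ UTR base 4789: caaactttttAGACAATatttttattg
ZEB2, 3′ UTR base 2453: acagtaatagTTGAGCAgaccttttta

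Neighbouring transcripts were examined because the setting for strand in the authors' counting is not given in the sources used here, although the library kit keeps strand. ZEB1-AS1, which is antisense to ZEB1, gave 5.06, 4.86 and 5.15 TPM in siNC libraries 1, 2 and 3, against 6.75, 6.28 and 11.02 TPM in siBCAT1 libraries 1, 2 and 3, with an adjusted p of 0.0790 from limma. ZEB1-AS1 and ZEB1 values were thus both higher in the siBCAT1 libraries, and neither gene passed the threshold. Replicate 3 had the highest ZEB1-AS1 and the lowest ZEB1 value within each group, though the siNC values of ZEB1-AS1 were close to each other. ZEB1 was at 12.7 TPM in siNC replicate 3 and at 14.8 TPM in siBCAT1 replicate 3. Without strand, the reads of both genes could not be told apart, and the part of ZEB1-AS1 in the ZEB1 values was not tested. EPCAM-DT, transcribed away from the EPCAM start, gave 10.5, 16.9 and 18.1 TPM in siNC libraries 1, 2 and 3, against 7.35, 5.92 and 11.9 TPM in siBCAT1 libraries 1, 2 and 3, in the direction opposite to EPCAM, with overlapping groups and an adjusted p of 0.0674 from limma, which passed the threshold with a mean of at least 5 TPM, with the replicate number as a block and without siBCAT1 replicate 3. RF00017, on the same strand within EPCAM, was listed at up to 2.95 TPM, above the highest EPCAM value of 2.61 TPM, and AC110015.1, antisense to CDH2, at 0.250 to 0.920 TPM, above the highest CDH2 value of 0.340 TPM. Their part in the values of EPCAM and CDH2 was not tested. VIM-AS1 reached at most 2.67 TPM, ZEB2-AS1 at most 0.330 TPM, and the antisense gene AC099314.1 in CDH1 at most 0.380 TPM. The annotation lists a processed pseudogene each for SNAI1 (SNAI1P1) and ZEB2 (ZEB2P1), both listed at 0 in all libraries.

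The labelled cell type was compared with its markers. Of 8 markers of lung adenocarcinoma cells, the keratins KRT8, KRT7, KRT18 and KRT19 were abundant, EPCAM was low, and NKX2-1 (at most 0.10 TPM), SFTPB (at most 0.240 TPM) and NAPSA (at most 0.330 TPM), which mark differentiated alveolar-type tumours, were near 0. Of 9 fibroblast markers, 3 had a mean of at least 1 TPM (COL1A2, COL1A1 and PDGFRB), and DCN and LUM were listed at 0. Their summed level was 253 to 275 TPM in siNC and 190 to 245 TPM in siBCAT1 libraries, mostly COL1A2, and COL1A1 and PDGFRB fell (by log2 values of -0.68 and -0.86, adjusted p = 0.0197 and 0.0110 from limma). The call of COL1A1 was lost without siNC replicate 1 or 3 or siBCAT1 replicate 2 or 3 and without a filter (adjusted p at most 0.0886), and the part of such cells in the results was not tested. Of 8 leukocyte and endothelial markers, CD68 and CDH5 were among the 3 that passed the filter, PTPRC was at most 0.330 TPM, PECAM1 at most 0.0400 TPM and CD3E was at 0. Their sum was 31.2 to 40.2 TPM in siNC and 54.6 to 63.4 TPM in siBCAT1 libraries, mostly CD68, the gene of a lysosomal membrane protein, which rose (0.71 on the log2 scale, limma adjusted p = 0.00342).

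The wider epithelial program was described by lists of genes chosen with earlier results of these data known, as counts without a test of the list. These counts stand beside the 10.4% of all tested genes called lower, the 16.7% called higher and their median log2 fold change of 0.04, and nothing particular to a list is read from them. Of 24 epithelial identity genes 12 were tested, of which 5 fell and 1 rose, with a median log2 fold change of -0.40. The 4 keratins of this list, which form intermediate filaments of epithelial cells, all fell. KRT19 fell furthest, from 91.3 ± 6.77 to 33.9 ± 5.22 TPM (SD, 3 libraries per group), with a log2 fold change of TPM + 1 of -1.41 (SE 0.12, limma adjusted p = 0.000418). KRT7 fell from 922 ± 58.9 to 493 ± 51.9 TPM (-0.91 on the log2 scale, limma adjusted p = 0.000671), and KRT8 (-0.47) and KRT18 (-0.33) also fell, though KRT8 lost its call without siBCAT1 replicate 1 (adjusted p = 0.0524 from limma) and KRT18 without siNC replicate 3, without any 1 siBCAT1 replicate and without a filter (at most 0.0884). LSR, the gene of a receptor at tricellular junctions, fell as well (-0.71, adjusted p = 0.00378 from limma). ESRP1, an epithelial splicing regulator, and GRHL2, an epithelial transcription factor, were listed at 0 in all libraries.

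Of 28 junction and polarity genes 23 were tested, of which 5 fell and 2 rose, with a median log2 fold change of -0.08. CLDN4, a claudin of tight junctions, fell from 6.56 ± 3.12 to 1.71 ± 0.435 TPM (SD, 3 libraries per group). Its log2 fold change of TPM + 1 was -1.40 (SE 0.33, limma adjusted p = 0.02). LLGL2, a basolateral polarity gene, fell by 0.92 on the log2 scale (adjusted p = 0.00855 from limma). JUP, which encodes plakoglobin, also fell (-0.66, adjusted p = 0.0490), as did PKP3 (-0.52), a desmosomal gene, and CTNNB1 (-0.27), which encodes the beta-catenin that binds the tail of E-cadherin. DSG2, a desmosomal cadherin (0.44, adjusted p = 0.0202), and SCRIB, a polarity gene (0.52, adjusted p = 0.0140 from limma), rose. Most of these calls were sensitive to single libraries: with each library left out in turn, between 1 and 4 genes of this list fell and between 0 and 2 rose. CLDN4 lost its call without any of the libraries but siNC replicate 2 and without a filter (adjusted p at most 0.0880), and JUP likewise and with the replicate number as a block (adjusted p at most 0.156), DSG2 without siNC replicate 1 or 3 or siBCAT1 replicate 1 or 2 or without a filter (at most 0.0680), and SCRIB without siNC replicate 1 or siBCAT1 replicate 1 or 3 (at most 0.0634). PKP3 lost its call without any siNC replicate or siBCAT1 replicate 1 or 3 and without a filter (at most 0.109), and CTNNB1 without siNC replicate 1 or any siBCAT1 replicate and without a filter (at most 0.0887). LLGL2 kept its call in all 11 alternatives in which it was tested.

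Of 28 mesenchymal genes 26 were tested, of which 7 fell and 5 rose, with a median log2 fold change of -0.02, where 10.4% of all tested genes were called lower and 16.7% higher. LOX, which encodes the collagen cross-linking enzyme lysyl oxidase, fell furthest, from 21.4 ± 2.10 to 6.62 ± 0.758 TPM (SD, 3 libraries per group). Its log2 fold change of TPM + 1 was -1.56 (SE 0.12, limma adjusted p = 0.000286). TGFBI (-0.62), a matrix protein induced by TGF-beta, and TPM1 (-0.62), a tropomyosin, fell as well. Those that rose furthest were CCN2 (1.16, adjusted p = 0.0130) and CCN1 (1.13, adjusted p = 0.00133), matricellular genes, and CNN1 (0.95, adjusted p = 0.0122 from limma), which encodes the actin-binding protein calponin. CNN1 lost its call without siBCAT1 replicate 1 or 3, and CCN2 without siNC replicate 1 or siBCAT1 replicate 1 or 2 and without a filter on low values (adjusted p at most 0.0628 for both). Thus FN1 rose with some mesenchymal genes while others fell.

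Other EMT transcription factors and the partners of these repressors were examined next. Of 22 genes 14 were tested, 3 of which fell and 3 rose, with a median log2 fold change of -0.12. TCF3, which encodes the E-box binding proteins E12 and E47, rose from 70.2 ± 1.31 to 195 ± 11.3 TPM (SD, 3 libraries per group). Its log2 fold change of TPM + 1 was 1.46 (SE 0.06, limma adjusted p = 6.28e-05). HDAC1, a histone deacetylase found in repressor complexes with Snail, rose from 55.7 ± 2.91 to 103 ± 3.67 TPM (0.87 on the log2 scale, limma adjusted p = 0.000286), and HDAC2 rose less (0.31, adjusted p = 0.0195 from limma). CTBP1, the gene of a corepressor bound by ZEB proteins, fell from 112 ± 3.71 to 78.1 ± 7.32 TPM (-0.52 on the log2 scale, limma adjusted p = 0.00362), and HMGA2, an architectural chromatin gene, fell by 0.86 on the log2 scale (adjusted p = 0.00525 from limma). SOX9 fell by 0.32 (adjusted p = 0.0221 from limma). HDAC2 and SOX9 lost their calls without siNC replicate 1, siNC replicate 3, siBCAT1 replicate 1 or siBCAT1 replicate 2, and HDAC2 also under quantile normalization and without a filter (adjusted p at most 0.105), whereas the other 4 kept theirs in all 12 alternatives.

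TGF-beta is an inducer of EMT, and the part of its pathway in the changes of the members was not tested. All 24 genes of the pathway list passed the filter. Of these, 10 fell and 3 rose, with a median log2 fold change of -0.24. TGFBR2, the gene of the receptor that binds the ligand, fell from 25.2 ± 1.73 to 10.99 ± 0.640 TPM (SD, 3 libraries per group). Its log2 fold change of TPM + 1 was -1.13 (SE 0.09, limma adjusted p = 0.000368). SMAD7 (-0.96, adjusted p = 0.00190) and SMAD6 (-0.97, adjusted p = 0.00477 from limma), which encode inhibitory SMADs, also fell, and so did SMAD3 (-0.86, adjusted p = 0.00188 from limma), a signal transducer of the pathway. ID3, an inhibitor of E proteins such as those of TCF3, rose from 146 ± 19.3 to 296 ± 19.8 TPM (1.02 on the log2 scale, limma adjusted p = 0.000842). ID1 rose as well (0.83, adjusted p = 0.00826 from limma), and ID2, from the same family, fell (-0.74, adjusted p = 0.0237 from limma). SKI, a corepressor of SMADs, rose by 0.36 (adjusted p = 0.0174 from limma), a call lost without siNC replicate 1 or 3 or siBCAT1 replicate 1 or 2. Of the ligand genes, TGFB3 was called lower (-0.38, adjusted p = 0.0435 from limma), a call lost without any 1 library, without a filter, with a mean of at least 5 TPM and under quantile normalization (at most 0.126). TGFB1 and TGFB2 and the receptor gene TGFBR1 were not called. ID2 lost its call without siNC replicate 2 or 3 or siBCAT1 replicate 1 or 3 and without a filter (at most 0.0955).

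**Figure D4:**
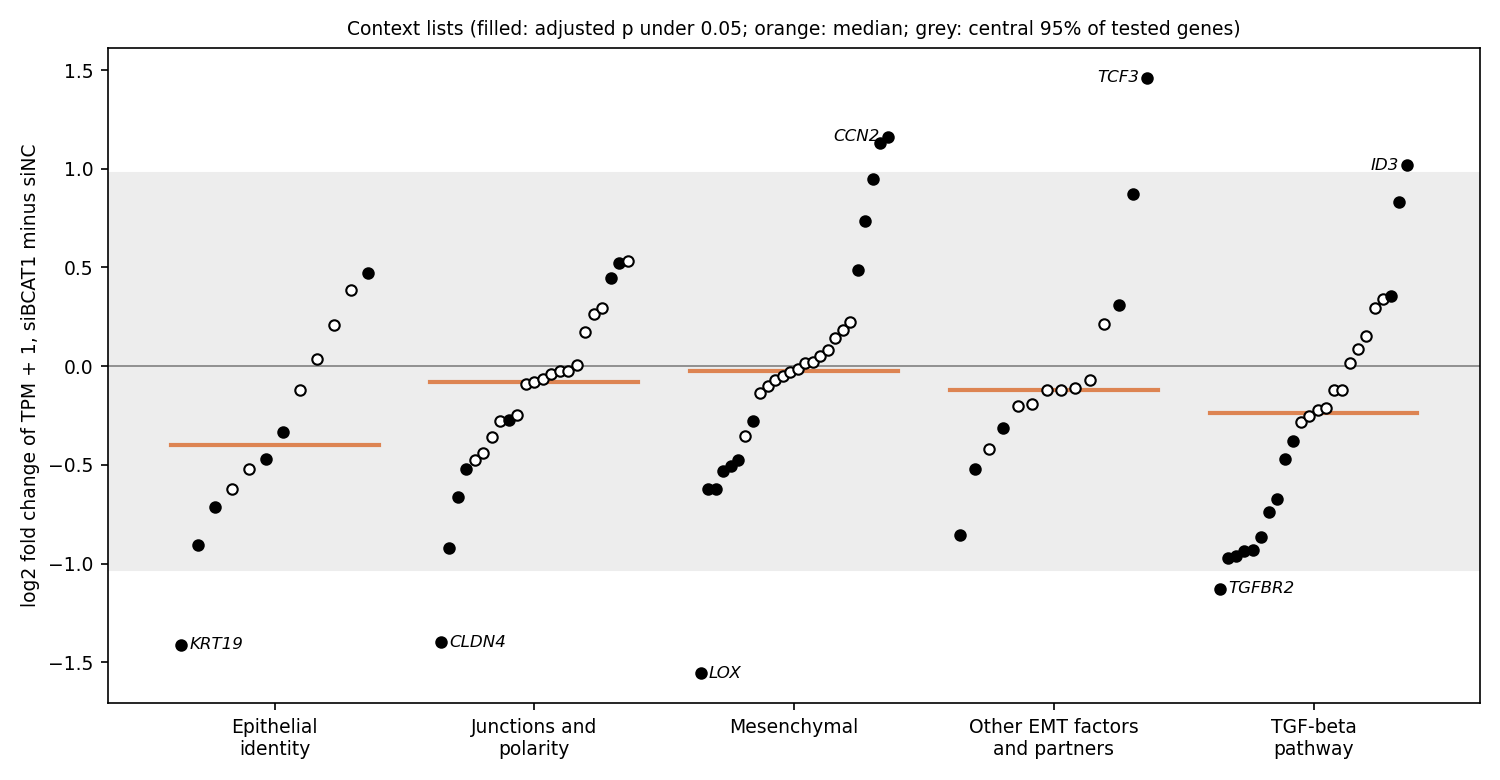
Log2 fold change of TPM + 1 (vertical axis, siBCAT1 minus siNC) of each tested gene in 5 lists, where filled points have an adjusted p under 0.05 (limma), orange lines mark the medians, grey marks the central 95% of all tested genes and the called gene furthest beyond it in each direction is named. The epithelial identity genes have a median of -0.40, and the junction and mesenchymal lists have medians of -0.08 and -0.02 with called genes on both sides.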

How the data were processed

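RNA-seq data of 6 libraries of 67R cells, 3 siNC and 3 siBCAT1, were analysed, with groups and replicate numbers taken from the labels. The authors prepared stranded mRNA libraries, checked reads with fastp, mapped them with HISAT2 to GRCh38 and assembled transcripts with StringTie, as their processing notes and methods name these steps. The deposited values were read as TPM from their sums and decimals. Versions and annotation are not given in the sources used here. Columns of no sample numbered 0.

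The test used log2(TPM + 1) and took in the 14286 of 60664 genes whose average across all libraries reached 1 TPM. It was made in limma 3.58.1 under R 4.3.3 (trend, two-sided, Benjamini-Hochberg, threshold 0.05). The method was tested on simulated data. The members and lists were chosen with earlier results of these data known. In each list the called genes named were up to 3 that rose most and up to 3 that fell most, with all neighbours, the classical cadherins and other cell markers at 1 TPM or more, and the 5 highest lung markers. CTNNB1, PKP3, SMAD3, ID2, TGFB1, TGFB2, TGFB3, TGFBR1, ESRP1, GRHL2, TWIST2, AC099314.1, AC110015.1, RF00017, the pseudogenes and the markers near 0 were named after their values were seen, as were the ratios other than VIM to CDH1 and CDH2 to CDH1. Some genes that this rule names are not reported here. No libraries were duplicates, since at most 1.42% of the tested genes had identical values in any pair.

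Alternatives were a pseudocount of 0.1, no filter, a mean of at least 5 TPM, the replicate number as a block, median-ratio scaling, quantile normalization and each library left out in turn. Positions and 3′ UTRs are from GENCODE 29 (GRCh38), and promoters and microRNAs from RefSeq (GRCh38.p14). Python 3.11.15, pandas 2.3.3 and matplotlib 3.10.9 were used.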

Additional observations from a re-analysis of the deposited data

How the results depend on the processing

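The calls of CDH1, SNAI1, ZEB2 and FN1 were kept with the same direction in all 12 alternatives, and that of SNAI2 in the 11 in which it was tested. The log2 fold change of CDH1 lay between -2.84 (pseudocount of 0.1) and -1.91 (without siBCAT1 replicate 2), and its adjusted p reached 0.0483 without siNC replicate 1. EPCAM and ZEB1 passed the threshold in no alternative, and VIM only under quantile normalization, which gave 2 members called higher. With a mean of at least 5 TPM, SNAI2 and EPCAM were not tested, which left 3 members called lower. BCAT1 lay between -2.28 and -2.03.

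Among the lists, with each library left out in turn, 3 to 6 epithelial identity genes, 6 to 7 mesenchymal genes and 7 to 9 TGF-beta genes were called lower. In the same fits, 0 to 1 epithelial identity genes, 3 to 5 mesenchymal genes and 2 to 3 TGF-beta genes were called higher.

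Over all tested genes, 2382 were called higher and 1483 lower. Without a filter, with more genes tested, 960 were called lower. Leaving out each library in turn gave between 1435 and 2276 genes called higher and between 796 and 1430 called lower, and with fewer libraries the count was lowest without siNC replicate 1 (2318 in either direction). Median-ratio scaling moved the median log2 fold change of all genes from 0.04 to -0.0063 and the share of called genes that were higher from 61.6% to 52.1%.

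Libraries with the same replicate number deviated together only weakly (correlations over genes of 0.0844, 0.102 and 0.124, each the highest for its library). Correlations between different numbers were all negative, between -0.0814 and -0.0134. The labels number the replicates but do not say whether equal numbers were paired. With the replicate number as a block, 4568 genes were called (2773 higher and 1795 lower), and 1 member was called higher and 4 lower. The block was not taken as the design. Tests for read counts were not run because the table holds TPM. Among groups of 3 libraries no test for outlying samples was made. Depth is unknown, so the counting error of low values such as those of CDH2 could not be estimated.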

Other observations

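Other classical cadherins were measured beside CDH1 and CDH2. Of 17 such genes, 4 had a mean of at least 1 TPM and none was called by limma, although 1 was called lower without siNC replicate 2. CDH11, a cadherin of mesenchymal cells, was the most abundant of them, with 16.7 ± 2.13 TPM in control and 15.1 ± 1.49 TPM in knockdown libraries (SD, 3 per group, -0.14 on the log2 scale, limma adjusted p = 0.425). CDH24 was at 9.34 ± 2.10 and 6.86 ± 0.477 TPM (adjusted p = 0.138), CDH8 at 1.73 ± 1.04 and 1.75 ± 0.442 TPM (adjusted p = 0.882) and CDH5, the cadherin of endothelial cells, at 0.773 ± 0.0850 and 1.70 ± 0.850 TPM (adjusted p = 0.176 from limma). After knockdown CDH11 was thus higher than CDH1 in every library, at 13.9 to 16.7 TPM, whereas in control cells CDH1 was higher than CDH11 only in siNC replicate 3.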
